A study of Caenorhabditis elegans with 6 samples.

Results

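The 10 genes described here belong to the circuit that sets division of germ line stem cells against entry into meiosis in Caenorhabditis elegans. They are lag-2, glp-1, lag-1, lst-1, fbf-1, fbf-2, gld-1, gld-2, gld-3 and nos-3. They were chosen by gene symbol, from a named list of the Notch receptor, its ligand, its nuclear factor and target, and the RNA-binding proteins below them. Each of the 10 symbols matched 1 transcript cluster, the set of probes that stands for a transcribed locus, out of 25478 genes measured. The arrays held total RNA of whole wild-type N2 hermaphrodites, grown on plates with Escherichia coli OP50 for 48 h to the L4 larval stage. The control group of 3 arrays then spent 24 h at 20 °C in 50% M9, a salt buffer. The exposed group of 3 arrays spent the same 24 h in 50% M9 with citrate-coated superparamagnetic iron oxide nanoparticles, called C-SPIONs, at 500 µg/mL. No label tells whether arrays of the same group stem from different cultures, and p-values cover only the spread between these arrays, which may be technical.

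In the worm gonad the distal tip cell, a somatic cell, presents the ligand LAG-2 to neighbouring germ cells, which carry the Notch receptor GLP-1. The cleaved receptor enters the nucleus, binds the DNA-binding protein LAG-1 and switches on target genes such as lst-1 and sygl-1. Their products act with the PUF-family proteins FBF-1 and FBF-2, which repress the mRNAs of genes for meiotic entry and so hold cells in mitosis. Farther from the tip, GLD-1 with NOS-3 (translational repression) and GLD-2 with GLD-3 (poly(A) tail extension) promote entry into meiosis. Much of this control acts on translation, which RNA levels do not show.

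All 10 genes had a higher mean signal in the C-SPION arrays than in the controls, by 0.25 for lst-1 to 0.91 for glp-1 on the log2 scale. The median difference of the 10 was 0.63, against a median of 0.04 over all 26192 clusters tested. Differences above 0 made up 53.3% of all clusters. Without control 3 the count of higher genes was 9 of 10 and the median 0.45. No gene of the 10 passed limma's moderated test after Benjamini-Hochberg adjustment over all clusters, with adjusted p from 0.291 to 0.719, and 0% of all clusters passed. Without C-SPION 1, 63 of the 26192 clusters passed, 6 higher and 57 lower, and 0 of the 10 were among them. At an unadjusted p under 0.05 there were 5 of the 10, all higher (glp-1, nos-3, gld-3, lag-1 and lag-2), where 5.22% of all clusters were higher at that level. That count was 2 without control 3 and 3 without control 1, C-SPION 2 or C-SPION 3, while it was 4 without control 2 or C-SPION 1. In 7 of the 10 every C-SPION array lay above every control array, against 9.4% of all clusters.

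**Figure D1:**
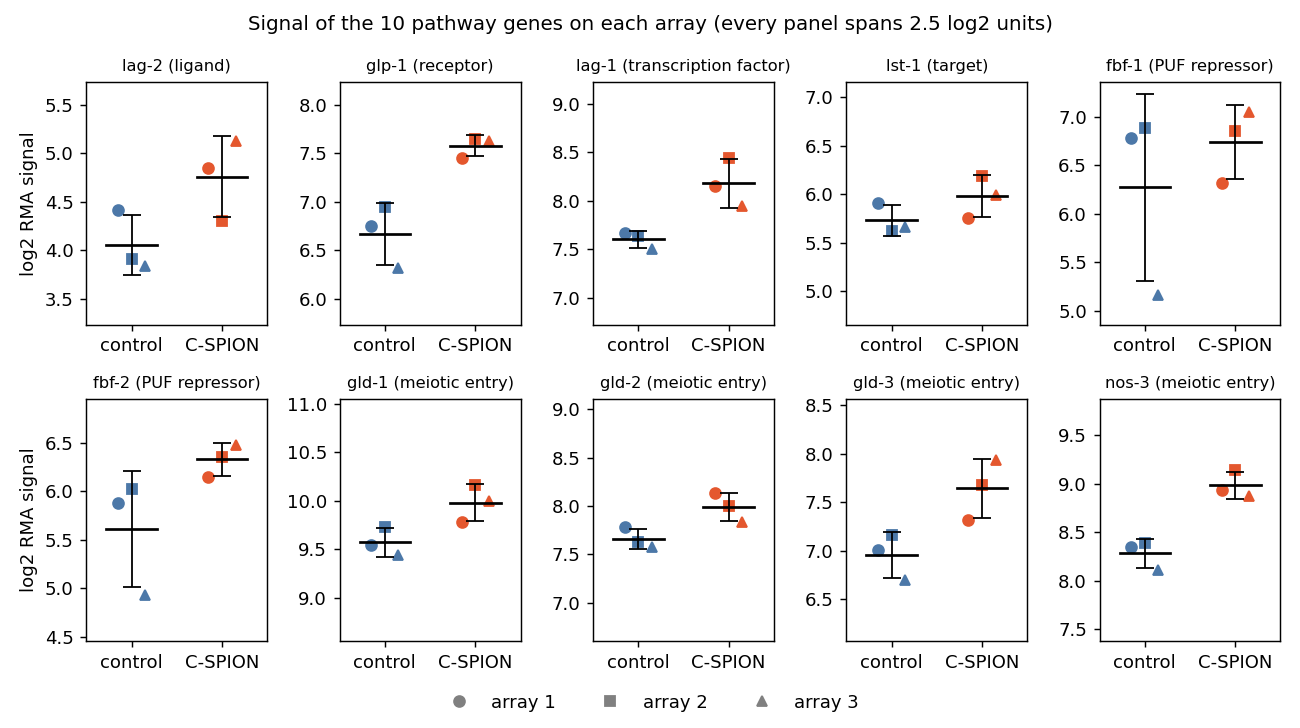
Log2 RMA signal (vertical axes, each spanning 2.5 log2 units) of the 10 genes on the 3 control and 3 C-SPION arrays; points are arrays, horizontal lines are group means and bars are the SD. The groups lie apart for 7 genes and overlap for lag-2, lst-1 and fbf-1, and control 3 lies far below the other controls for fbf-1 and fbf-2.

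The ligand gene lag-2, which is expressed in the distal tip cell, had log2 signals of 4.41, 3.91 and 3.84 in controls 1 to 3 and of 4.85, 4.30 and 5.12 in C-SPION 1 to 3. C-SPION 2 lay below control 1, so the groups overlapped. The difference was 0.70 (95% interval 0.03 to 1.38, limma adjusted p = 0.382), with group means of 4.05 ± 0.31 and 4.76 ± 0.42 (SD, n = 3). Since whole animals were used, the signal cannot be assigned to the distal tip cell. The lag-2 signal stood below the array's median on 5 of the 6 arrays. Its distance from background is unknown, because no detection calls were used here, and RMA compresses differences of dim clusters.

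The receptor gene glp-1 was at 6.75, 6.94 and 6.31 in the controls and at 7.45, 7.65 and 7.63 with C-SPIONs. The exposed arrays lay close together and above the controls, of which control 3 was lowest. Its difference of 0.91, or 1.88-fold, was the largest of the 10 (95% interval 0.37 to 1.45, limma adjusted p = 0.291) and exceeded that of 97.6% of all clusters. Within each array, glp-1 minus lag-2 differed between the groups by 0.21 (exact two-sided permutation p = 0.5, adjusted over 12 such tests p = 0.72). That value turned to -0.06 without C-SPION 2, so receptor and ligand were not distinguishable in how far they stood above the controls.

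The gene of the nuclear factor, lag-1, was at 7.67, 7.63 and 7.50 in the controls and at 8.15, 8.44 and 7.94 with C-SPIONs. Its 3 controls were within a narrow range and below all exposed arrays. The difference was 0.58 (95% interval 0.08 to 1.07, limma adjusted p = 0.353). LAG-1 serves both Notch receptors of the worm and is not restricted to the germ line.

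The Notch target lst-1 was at 5.91, 5.62 and 5.66 in the controls and at 5.76, 6.19 and 5.99 with C-SPIONs. Control 1 lay above C-SPION 1, and the groups overlapped. The difference of 0.25 was the smallest of the 10 (95% interval -0.24 to 0.74, limma adjusted p = 0.652), and it was 0.15 without C-SPION 2. The other well-known Notch target of the stem cells, sygl-1, was at 6.27, 6.97 and 6.20 in the controls and at 6.72, 6.78 and 7.05 with C-SPIONs. Control 2 lay above C-SPION 1 and C-SPION 2. Its difference was 0.37 (95% interval -0.25 to 0.99, limma adjusted p = 0.592), or 0.23 without control 3 and 0.62 without control 2.

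The PUF gene fbf-1 was at 6.78, 6.88 and 5.16 in the controls and at 6.32, 6.85 and 7.05 with C-SPIONs. Control 3 stood far below the other controls, which lay within the range of the exposed arrays. The difference of 0.47 (95% interval -0.67 to 1.60, limma adjusted p = 0.719) turned to -0.09 without control 3, and it was 0.72 without control 1 and 0.77 without control 2. Its paralogue fbf-2 was at 5.88, 6.03 and 4.93 in the controls and at 6.15, 6.36 and 6.48 with C-SPIONs. Here too control 3 was lowest, although every exposed array lay above every control. The difference was 0.72 (95% interval -0.04 to 1.47, limma adjusted p = 0.416). Leaving out control 3 brought it to 0.38. The genes are near-identical neighbours, with 1 protein-coding gene between them in the WBcel235 annotation, and probe sequences were not used here, so signal shared between their clusters is possible. Their difference within each array, fbf-1 minus fbf-2, averaged 0.66 ± 0.37 (SD, n = 3) over the controls and 0.41 ± 0.21 over the exposed arrays (exact permutation p = 0.3, adjusted p = 0.72). The difference of -0.25 became -0.47 without control 3 (exact permutation p = 0.1), -0.16 without control 2 and -0.13 without control 1 or C-SPION 1.

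Among the genes that promote meiotic entry, nos-3, a Nanos-family gene, was at 8.35, 8.39 and 8.11 in the controls and at 8.94, 9.14 and 8.87 with C-SPIONs. The gap between the groups was wider than the spread within either of them. The difference was 0.70 (95% interval 0.24 to 1.16, limma adjusted p = 0.302). The gene gld-3, which encodes a Bicaudal-C family partner of GLD-2, was at 7.01, 7.16 and 6.70 in the controls and at 7.32, 7.68 and 7.93 with C-SPIONs. Both groups were more spread than for nos-3, and they lay apart. The difference was 0.69 (95% interval 0.12 to 1.26, limma adjusted p = 0.344).

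The STAR-family repressor gene gld-1 was at 9.54, 9.73 and 9.44 in the controls and at 9.78, 10.16 and 10 with C-SPIONs. C-SPION 1 stood just above control 2, and the groups did not overlap. The difference was 0.41 (95% interval -0.07 to 0.89, limma adjusted p = 0.449). The poly(A) polymerase gene gld-2 was at 7.78, 7.63 and 7.58 in the controls and at 8.13, 8.0 and 7.84 with C-SPIONs. Its lowest exposed array stood just above its highest control. The difference was 0.33 (95% interval -0.12 to 0.78, limma adjusted p = 0.515).

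**Figure D2:**
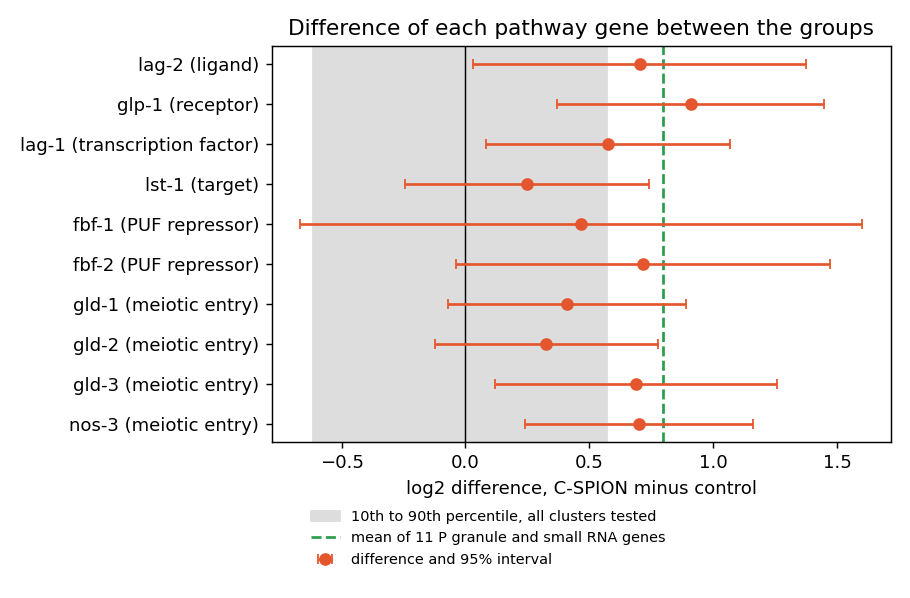
Log2 difference between groups, C-SPION minus control (horizontal axis), of the 10 genes by role; points are estimates, bars 95% intervals of the limma fit, the grey band the 10th to 90th percentile of all clusters (-0.61 to 0.57) and the dashed line the mean difference of 11 P granule and small RNA genes. The interval lies above 0 for lag-2, glp-1, lag-1, gld-3 and nos-3, and glp-1 alone stands to the right of the dashed line.

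The arrays hold RNA of whole animals, and RMA scales them to each other. More germ cells, more RNA per germ cell and a smaller share of RNA from other tissues therefore cannot be told apart. As a measure of other germ line RNA, 11 genes of P granules (germ cell RNA bodies) and germ line small RNA pathways were followed. All 11 were higher with C-SPIONs and their groups did not overlap in 11 of 11, against 9.4% of all clusters. Their mean ranged from 7.01 to 7.67 over the control arrays and from 8.03 to 8.36 over the C-SPION arrays. The mean difference was 0.80, and 9 of the 10 pathway genes had a smaller difference. That count depends on the list. The mean difference of 11 oocyte and eggshell genes was 0.54, and their median was 0.68. In that list perm-2 at -0.16 and perm-4 at -0.25 stood below 0 and lowered the mean, while the other 9 stood above 0. Differences larger than 0.54 were those of glp-1, fbf-2, lag-2, nos-3, gld-3 and lag-1, and smaller ones those of lst-1, fbf-1, gld-1 and gld-2. Against the median of 0.68, lag-1 at 0.58 was smaller too. Relative to the control mean, control 3 was lowest on the P granule and small RNA list, at -0.43. On that list C-SPION 1 stood at 0.59 below C-SPION 2 at 0.88 and C-SPION 3 at 0.92. The 10 pathway genes averaged -0.32 in control 3 and 0.44, 0.64 and 0.64 in C-SPION 1 to 3 on the same scale. Markers of the somatic gonad, which holds the distal tip cell, had a median difference of -0.04 with 4 of 9 higher, and a mean difference of -0.13. The median ran from -0.21 without C-SPION 2 to 0.07 without control 3, and was 0.03 under median centring of the arrays, so its sign was not settled. It was -0.11 without control 1, -0.16 without control 2, -0.08 without C-SPION 1 and -0.18 without C-SPION 3. Their mean ranged from 6.13 to 6.37 in controls and from 6.08 to 6.15 with C-SPIONs. Single genes of the list ran from -0.66 for gon-1 to 0.23 for hlh-12, which was dim (group means 3.96 and 4.19). The list covers the somatic gonad as a whole, so its median does not measure the distal tip cell by itself.

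Measured against the 11 reference genes of the same array, the pathway genes no longer stood together above the controls. For glp-1 the difference that was left was 0.11, with relative values of -0.15, 0.07 and 0.07 in controls and 0.19, 0.10 and 0.04 with C-SPIONs (exact permutation p = 0.4, adjusted p = 0.72). Exposed and control arrays were thus mixed for glp-1, and its difference was 0.04 without control 1, 0.07 without C-SPION 1 and 0.03 against the median of the reference genes. For lst-1 the value relative to the reference was -0.05, -0.31 and 0.36 in controls and -0.56, -0.42 and -0.66 with C-SPIONs, a difference of -0.55. For gld-1 it was -0.26, -0.04 and 0.30 in controls and -0.38, -0.29 and -0.49 with C-SPIONs, a difference of -0.39. The groups lay apart for lst-1 and gld-1 only, both lower with C-SPIONs (exact permutation p = 0.1 for each, the smallest that 3 against 3 arrays allow, adjusted p = 0.6). The gld-1 difference was -0.24 without control 3. Against the median of the reference genes, gld-1 no longer reached that p (exact permutation p = 0.2). With 11 oocyte and eggshell genes as the reference neither did: lst-1 was at -0.29 (exact permutation p = 0.2) and gld-1 at -0.13 (exact permutation p = 0.4). In that setting glp-1 was at 0.37 (exact permutation p = 0.1). For gld-2 the difference from the 11 reference genes was -0.47 (exact permutation p = 0.2), or -0.30 without control 3 and -0.21 against the oocyte list. For the remaining 6 genes it lay between -0.33 for fbf-1 and -0.08 for fbf-2, with exact permutation p from 0.4 to 0.8. These small differences moved with single arrays: that of fbf-1 was -0.67 without control 3 (exact permutation p = 0.1) and -0.13 without control 2, and that of lag-1 was -0.04 without C-SPION 3. Against the mean of the oocyte list, lag-2, lag-1, fbf-2, gld-3 and nos-3 stood above 0, from 0.04 for lag-1 to 0.18 for fbf-2. In that setting fbf-1 stood at -0.07. The lower values of perm-2 and perm-4 are part of that mean.

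**Figure D3:**
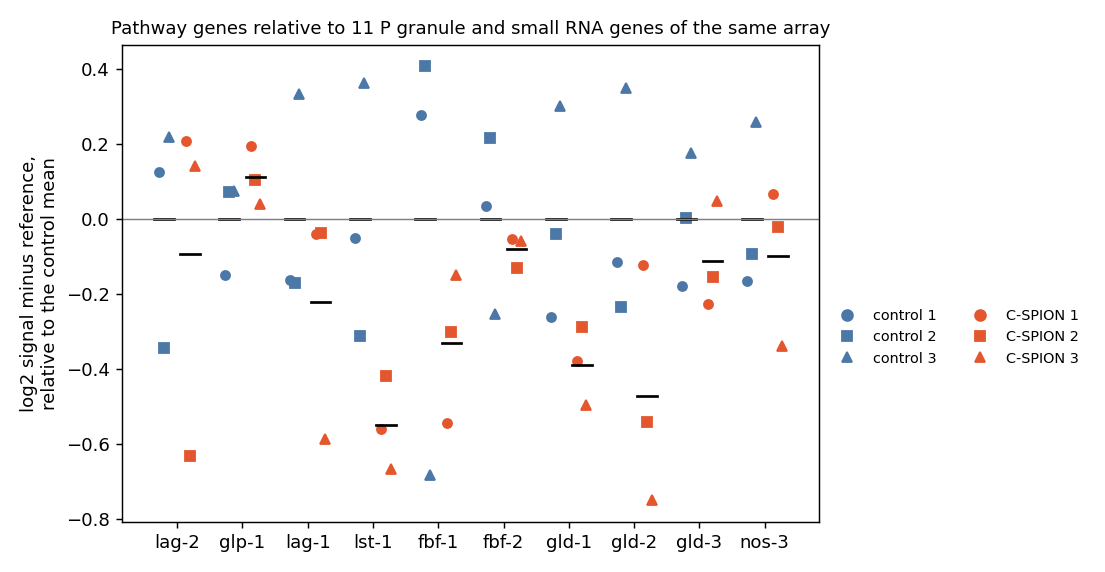
Log2 signal of each gene minus the mean of 11 P granule and small RNA genes on the same array, relative to the control mean (vertical axis); blue points are control arrays, red points C-SPION arrays and black lines group means. The groups lie apart, with C-SPION lower, for lst-1 (difference -0.55) and gld-1 (-0.39), and they overlap for the other genes.

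Other genes of Notch signalling were mixed. Of 26 measured, 19 were higher and 7 lower with C-SPIONs, with a median difference of 0.27, and 0 passed the adjusted test. Unadjusted, 3 were higher and 1 lower at p under 0.05, where 5.22% of all clusters were higher and 7.3% lower. The groups lay apart in 6 higher and 1 lower, against 9.4% and 9.24% of all clusters. The gene with the smallest p was dos-1, which encodes a secreted co-ligand of the DOS-motif family. It was at 6.28, 6.72 and 6.48 in the controls and at 5.63, 5.08 and 5.23 with C-SPIONs. All exposed arrays lay below the controls, the opposite of glp-1 (difference -1.18, 95% interval -1.73 to -0.63, limma adjusted p = 0.262). The ligand-like genes dsl-2 and dsl-3 stood at 1.05 and 1.21 (limma adjusted p = 0.306 and 0.339). For dsl-2 and dsl-3 control 3 was the highest control, unlike for the 10 pathway genes, where it was the lowest control in 9.

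Most genes whose products process or assist the receptor stood above 0. Among them were sel-5 at 0.57, sup-17 at 0.47, hop-1 at 0.28, aph-2 at 0.24, aph-1 at 0.20 and adm-4 at 0.12. The groups overlapped in all of these but sel-5. Control 3 was the lowest control for sel-5, sup-17 and hop-1, so their differences are smaller without it. For aph-1 it was the highest control, and that difference is larger without it. Below 0 were the gamma-secretase subunit gene pen-2, at -0.02 (0.06 under median centring, 0.27 without control 3), and the epsin gene epn-1, at -0.07 (0.20 without control 3). All the genes named so far in this paragraph were picked after their values were seen. The presenilin gene sel-12, part of the gamma-secretase that cleaves Notch, was at 6.30, 6.23 and 6.16 in the controls and at 6.84, 6.71 and 6.99 with C-SPIONs. Its groups lay clearly apart, with tight controls (difference 0.62, 95% interval 0.18 to 1.06, limma adjusted p = 0.314). The coactivator gene sel-8, whose product joins LAG-1 and the cleaved receptor, stood at 0.27 (adjusted p = 0.614), or 0.14 without control 3. The second Notch receptor gene, lin-12, which acts in somatic cells, stood at 0.46 with overlapping groups (adjusted p = 0.514), or 0.26 without control 2. The ligand gene apx-1, best known for signalling between cells of the early embryo, stood at 0.28 (adjusted p = 0.596).

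Genes that work beside the 10 in stem cell maintenance and meiotic entry were higher with C-SPIONs in 21 of 21 measured, with a median difference of 0.47, and 0.29 without control 3. In 8 the groups lay apart, and 7 had an unadjusted p under 0.05, against 9.4% and 5.22% of all clusters, while 0 passed the adjusted test. The gene with the smallest p was puf-3, a PUF-family gene, at 7.93, 7.66 and 7.07 in the controls and at 8.27, 8.77 and 9.08 with C-SPIONs. Its difference of 1.15 was above that of any of the 10 pathway genes, and the groups lay apart (95% interval 0.42 to 1.89, limma adjusted p = 0.298). The next were daz-1, a DAZ-family RNA-binding gene of oogenesis, at 0.58, rnp-8, a partner of GLD-2, at 0.64, and cki-2, a cyclin-dependent kinase inhibitor gene, at 0.57, with limma adjusted p from 0.358 to 0.38. Without control 3, puf-3 was at 0.91, daz-1 at 0.45, rnp-8 at 0.42 and cki-2 at 0.40.

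Genes whose mRNA FBF or GLD-1 is known to bind were also mostly higher, by a median of 0.45, with 14 of 15 above the controls and 0 past the adjusted test. That median was 0.15 without control 3. At an unadjusted p under 0.05 there were 4, all higher, and in 5 the groups lay apart, again against 5.22% and 9.4% of all clusters. They were led by rme-2, the yolk receptor gene of oocytes and a GLD-1 target, at 6.50, 6.68 and 6.05 in the controls and at 7.14, 7.66 and 7.38 with C-SPIONs. Its difference was 0.98 (95% interval 0.39 to 1.57, limma adjusted p = 0.292), and the groups lay apart. The meiotic axis gene him-3 stood at 0.74, the oocyte gene oma-2 at 0.71 and puf-5 at 0.68, with limma adjusted p from 0.339 to 0.368. Without control 3, rme-2 was at 0.80, him-3 at 0.48, oma-2 at 0.47 and puf-5 at 0.51. Many of these genes are expressed through much of the gonad, so their signal is not that of stem cells.

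**Figure D4:**
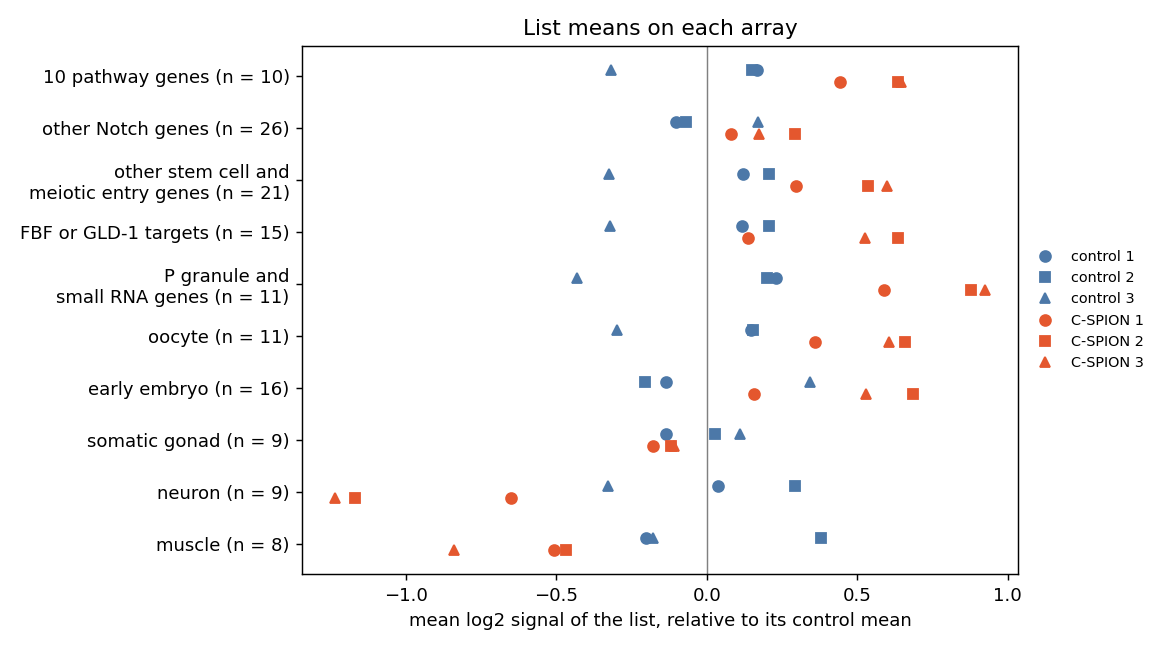
Mean log2 signal of each gene list on each array, relative to the list's control mean (horizontal axis); blue points are control arrays and red points C-SPION arrays. Control 3 is the lowest array on the 10 pathway genes (-0.32) and on the P granule and small RNA genes (-0.43), and C-SPION 1 is the exposed array nearest the controls on both.

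Markers of other tissues were not all higher on the same arrays. The oocyte list had a median difference of 0.68 with 9 of 11 higher, and of 0.42 without control 3. The early embryo list was at 0.40 with 14 of 16 higher, and at 0.63 without control 3. On the embryo list control 3 stood at 0.34 above C-SPION 1 at 0.16, whereas on the pathway genes it was the lowest array. Neuron markers were lower in 9 of 9, with a median of -1.08, and muscle markers lower in 8 of 8, with a median of -0.67. Sperm markers had a median of 0.25 (0.09 without control 1), hypodermis markers 0.30 and intestine markers -0.18 (-0.0017 without control 3), with 7 of 11, 5 of 7 and 3 of 8 higher. The sperm list was dim, with a mean signal of 4.25 over the controls and 4.52 over the C-SPION arrays. On each array its mean lay below the array's median. Over all named clusters the correlation between arrays ran from 0.935 to 0.969, and C-SPION 1 correlated more closely with control 1 (0.959) than with C-SPION 2 (0.935) or C-SPION 3 (0.949). Since arrays are scaled to each other, higher values of some transcripts and lower values of others on the same array are not independent, and the part of this in the pathway's difference was not tested.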

How the data were processed

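The table holds log2 values that the authors deposited, 1 for each transcript cluster on each array. Per the submitters' processing notes they come from RMA in Affymetrix Expression Console, for which no version or setting is given in the sources used here. Per the labels' protocols, total RNA was amplified to biotin-labelled cDNA. RMA scales arrays to each other, so values are relative to the rest of the array, and precision is limited by having 6 arrays. Symbols came from the platform annotation, updated through gene identifiers to RefSeq names of WBcel235. The 26192 named clusters were fitted by limma 3.58.1 under R 4.3.3, with lmFit and eBayes on the group term alone (two-sided, adjusted over all clusters, threshold 0.05). The fit was tested on simulated data. A gene with several clusters was taken at its brightest. Values relative to reference genes were compared by exact permutation over the 6 arrays, 12 tests in all. Named genes beside the 10 were the 4 with the smallest p in each pathway list, with lin-12, apx-1, sel-8 and sygl-1 whatever their values. Further genes that process or assist the receptor were picked after their values were seen. Members and lists were chosen with earlier results of these data known. No named cluster matched gls-1 or ntl-1 of the stem cell list. Control 3 carries the source name of control 2, and its title was used. Alternatives are given in the closing section.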

Additional observations from a re-analysis of the deposited data

How the results depend on the processing

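The 10 genes kept 0 adjusted calls under a replicate block, without any 1 array, and under quantile normalisation, median centring or array weights. They also kept 0 with a trended robust prior, all clusters or gene means, and at an adjusted p under 0.1. In the main limma fit 5 had an unadjusted p under 0.05. That count was 6 under quantile normalisation or median centring, and 4 with a minimum mean of 6. The median difference of the 10 genes with the replicate block was 0.632, and over all alternatives it ran from 0.451 to 0.717. Deviations of same-numbered arrays from their group means correlated at r = 0.222, 0.203 and 0.008. Control 1 with C-SPION 2 gave -0.266 and control 2 with C-SPION 1 gave -0.158. Among the exposed arrays, control 3 had its highest value with C-SPION 2, at only 0.058. Shared handling of arrays 1 and of arrays 2 is therefore possible. The labels state no pairs, so the main fit used none, and the replicate block was an alternative. Median centring moved the median of all clusters from 0.04 to 0.11, and groups then lay apart in 6 of the 10. A minimum mean of 6 dropped lag-2, lst-1 and fbf-2, and 7 of the remaining 7 were higher. Leaving out each array, fbf-1 ran from -0.09 to 0.77, and relative to the reference fbf-2 from -0.207 to 0.0273, lag-2 from -0.266 to 0.175, and nos-3 from -0.18 to 0.0315, while glp-1 minus lag-2 ran from -0.0583 to 0.415. Against the mean of the oocyte list lag-2, lag-1, fbf-2, gld-3 and nos-3 turned to 0.163, 0.0361, 0.176, 0.146 and 0.159. Relative to the reference, lag-1 ran from -0.312 to -0.0389, gld-3 from -0.2 to -0.0235 and fbf-1 from -0.672 to -0.128 without each array. Alternatives for every list other than the 10 genes, and for named genes on them, were chosen after seeing the data. The FBF or GLD-1 target list ran from 0.15 to 0.595. The cause of these changes was not tested.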

Other observations

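The profiles closest to 3 of the genes over the 6 arrays were looked up among 25478 genes, by the root mean square difference of log2 values centred on each gene's mean. This is a description, since genes picked for likeness share the arrays and their scaling. Nearest to glp-1 were cct-8, a chaperonin subunit gene, at 0.05, bub-1, a spindle checkpoint kinase gene, at 0.06, gars-1, a glycyl-tRNA synthetase gene, at 0.07, and fntb-1 and bop-1, both at 0.08. Of these, bub-1 averaged 7.80 ± 0.31 over the controls and 8.62 ± 0.05 over the exposed arrays (SD, n = 3). Nearest to gld-1 were hgap-1 at 0.03, and wdr-48, M57.2, mrps-18B and T22D1.3, each at 0.04. Nearest to lag-2 were srbc-63 at 0.08, F41H8.2 at 0.09, srw-94 and Y46E12BL.9, both at 0.11, and C29G2.2 at 0.13. Of these, the predicted chemoreceptor genes srbc-63 and srw-94 had control means of 2.77 and 2.69, near the low end of the arrays' range, and lag-2 itself was dim.

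Among the 10 genes themselves, lag-1 and nos-3 had the most similar profiles, at 0.10, followed by lst-1 and gld-1 at 0.16. The pair farthest apart was fbf-1 and gld-2, at 0.60. The 4 pairs farthest apart all held fbf-1, in which control 3 stood far below the other controls.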
